A study of Mus musculus with 15 samples.

Results

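The genes described are the cytosolic chaperones of N2a cells, the chaperonin that folds actin and tubulin, and the co-chaperones that bind them. They were taken by gene symbol alone, as the Cct genes and Tcp1, the Hspa8, Hspa4 and Hspa1 families, Hsph1, Hsp90a, the Hspb, Dnaja and Dnajb families, Bag1 to Bag6, St13 and Stip1, without Dnaja3, Dnajb9 and rows named as pseudogenes. The rule found 53 of the 22507 genes in the table and used no measured value. By role these were 10 chaperonin genes, 8 HSP70 genes, 3 HSP110 genes, 2 HSP90 genes, 13 HSP40 genes, 3 co-chaperones, 6 BAG genes, 6 small heat shock proteins and 2 others. The symbols also drew in genes that are not cytosolic chaperones, among them Hspa13 and Dnajb11, whose proteins sit in the endoplasmic reticulum, Hspb11, whose protein is a subunit of the intraflagellar transport complex, and Hspbap1.

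Cytosolic protein folding runs on a small number of machines. HSP70 proteins, led by the constitutive Hspa8, bind unfolded stretches of a client and release them on a cycle of ATP hydrolysis that HSP40 (DNAJ) proteins start and nucleotide exchange factors of the HSP110 and BAG families end. Stip1 and St13 (HOP and HIP) link HSP70 to HSP90, which completes the folding of kinases and steroid receptors, and the ring-shaped chaperonin TRiC, built of a single copy of each Cct subunit in each ring, folds actin and tubulin. Most of these genes are expressed in growing cells at all times, while a smaller set, such as Hspa1a, Hspa1b, Hspb1, Hsph1, Dnajb1 and Bag3, is induced by the heat shock factor Hsf1 when unfolded protein accumulates in the cytosol.

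N2a is a mouse neuroblastoma line, and total RNA was sequenced on day 3 after a mix of siRNA (50 nM) and plasmid was transfected. OPA1 is the dynamin-like GTPase that fuses mitochondrial inner membranes. The 5 groups had 3 libraries each: control siRNA with control plasmid (control), siRNA against Opa1 with control plasmid (knockdown), and the same siRNA with a plasmid for OPA1 that was wild type or carried V560F or V465F. All groups thus share transfection, and the species of the OPA1 insert and the fraction of cells transfected are not given in the labels, nor whether replicates were separate cultures. P-values therefore reflect no more than the spread among the libraries of a group, which may be technical. Opa1 was at 90.1 to 99.2 CPM (counts relative to the TMM-scaled library size) in the control libraries and at 27.3 to 38.5 CPM in the 12 libraries that received its siRNA. Of these, knockdown was at 33.9 to 38.5, wild type at 29.5 to 33.9, V560F at 27.3 to 35.7 and V465F at 33.4 to 34.7 CPM. The Opa1 counts thus show no rise with a plasmid for OPA1, and whether the plasmids were expressed cannot be read from them.

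The neuroblast genes Phox2a, Hand2 and Gata2 were at 21.7 FPKM or more in every library, and Gata3, Dbh and Th were lower, at 1.17 to 5.00 FPKM, while Ptprc, Col1a1, Epcam and Gfap, which mark blood cells, fibroblasts, epithelium and astrocytes, were at 0.0672 FPKM or less. Library totals were 20070123 to 27809960 counts. Levels drifted with transcript length along the groups. The slope of log2 level on log10 length was 0.42 ± 0.0931 in control, 0.21 ± 0.0077 in knockdown, 0.10 ± 0.153 with wild type, -0.49 ± 0.298 with V560F and -0.25 ± 0.0462 with V465F (mean ± SD, n = 3). V560F replicate 2 stood apart at -0.83, and calls lost without it are given beside the results. A second fit took out the dependence on length and GC content library by library, and its values are called corrected from here on. Scaling mattered as well: with library totals in place of TMM the median of all tested genes moved on the log2 scale by -0.146 (knockdown), -0.260 (V560F) and -0.168 (V465F), so small rises are relative to the typical gene.

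The constitutive genes dominated the family by level. On the FPKM scale, which divides by length, Hsp90ab1 averaged 3281 and Hspa8 2126 over all 15 libraries, followed by Cct2 at 774, Cct4 at 639, Cct5 at 508 and Cct7 at 378. The members together took 2.11% of all counts in control, 2.24% in knockdown, 2.27% with wild type, 2.63% with V560F and 2.54% with V465F. Of the 53, 43 had enough counts to be tested: 13 at 100 FPKM or more, 17 at 10 to 100 FPKM and 13 under 10 FPKM. The inducible HSP70 genes were close to absent. Hspa1a had 1 count in all 15 libraries, Hspa1b 14 with at most 3 in a library, and Hspb1, the inducible small heat shock protein HSP27, had 5. Hspa1a and Hspa1b are near-identical copies, and whether reads that fit both were dropped in counting cannot be told apart from low expression. Hspa1l (6 counts), Hspb7 (9), Cct8l1 (2), Dnajb8 (1), Hspb9 (54), Cct6b (73) and Dnaja4 (86) were also too low to test, and several of these are known from testis or muscle.

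Across the groups more members rose than fell under TMM scaling, though not with library totals, and the members that rose were mostly the abundant ones. In the knockdown against control, 17 of the 43 tested members rose and 4 fell (edgeR quasi-likelihood test, p adjusted by Benjamini-Hochberg over all 13074 tested genes, calls under 0.05), where 19.9% of all tested genes rose and 16.0% fell. With V560F against wild type 21 rose and 8 fell (24.5% and 24.9% of all tested genes), and with V465F 18 rose and 6 fell (18.1% and 20.0%). With library totals as the scale these counts became 7 and 10, 11 and 15, and 11 and 13, so the balance of rises and falls depended on the scaling. The balance of all 13074 tested genes moved as well. With library totals 974 of them rose and 3435 fell in the knockdown, 1210 and 5938 with V560F, and 904 and 4500 with V465F. When corrected, 18 rose and 6 fell in the knockdown (22.6% and 16.7% of all tested genes), 20 and 7 with V560F (22.8% and 20.9%) and 19 and 7 with V465F (17.9% and 18.2%). Without V560F replicate 2, 19 members rose and 6 fell with V560F, where 2806 rose and 2858 fell of the 13304 genes tested in that fit. The V560F fall of Hspa12a (-0.22, edgeR adjusted p = 0.0285) was -0.15 and not called there. It was also not called without wild-type replicate 1 or 2 or V560F replicate 3 (-0.21 to -0.18, highest edgeR adjusted p = 0.117). Of the 10 alternative fits 8 called it, with values over the 10 of -0.48 to -0.01. Separation of 3 libraries from 3 was common too: all 3 knockdown libraries lay above the controls in 28.8% of tested genes and below them in 24.5%, V560F above wild type in 25.5% and below in 26.6%, and V465F in 24.6% and 25.7%. In bulk RNA, a shift in a part of the cells, fewer cells of a kind and less RNA per cell cannot be told apart. A single test over the 5 groups called 36 of the 43, against 71.4% of all tested genes, and 32 when corrected, against 70.0%.

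**Figure D1:**
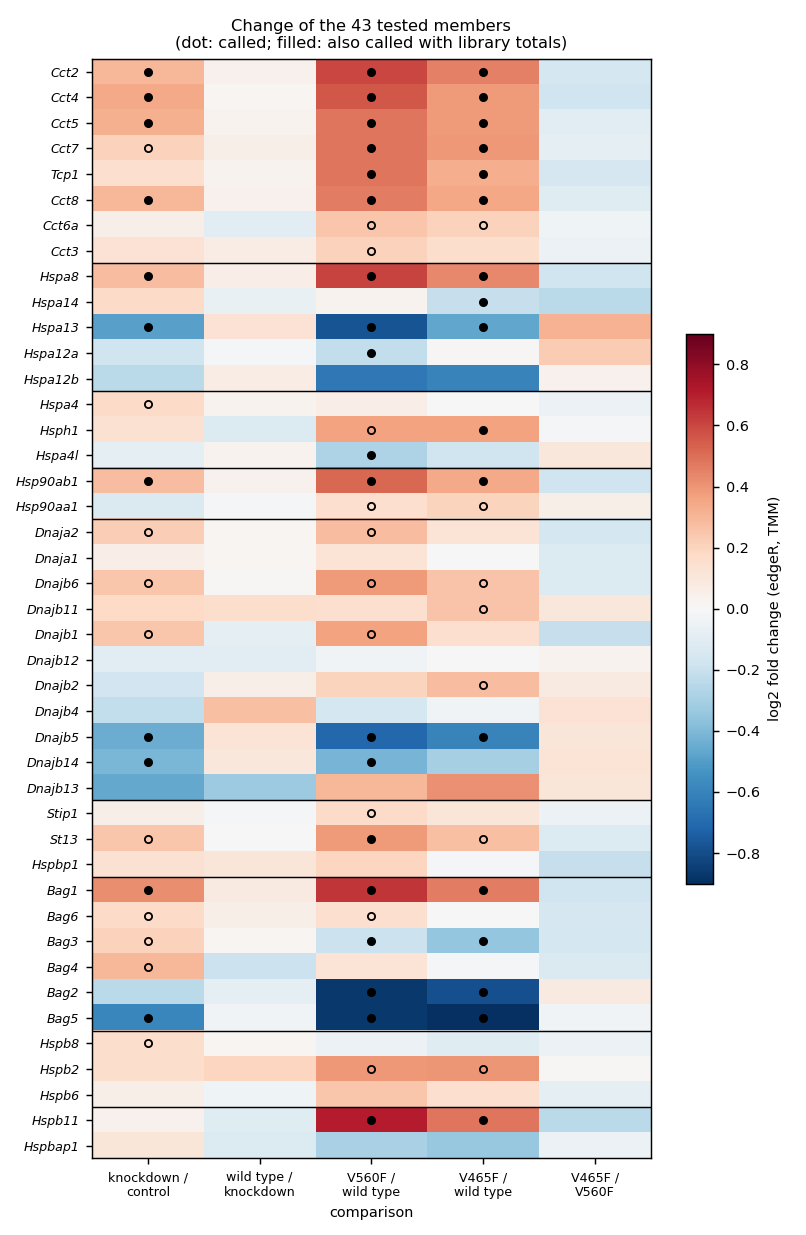
Log2 fold change (color) of the 43 tested members (vertical axis, grouped by role and ordered by FPKM within a role) in the 5 comparisons (horizontal axis), from the edgeR fit with TMM scaling. Dots mark called members, filled where library totals give the same call; 17 rose and 4 fell in the knockdown, 21 and 8 with V560F and 18 and 6 with V465F, and the columns of wild type against knockdown and of V465F against V560F hold no dot.

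The rises followed the level of a gene, in members as in other genes. Among the 570 tested genes at 100 FPKM or more, the median log2 fold change in the knockdown was 0.29, and for the 13 members in that range it was 0.25. With V560F these medians were 0.51 and 0.48, and with V465F 0.35 and 0.34. All 13 of these members rose with V560F, but so did 90.4% of the 570 genes, and with V465F 11 did (83.7%). In the knockdown 8 of the 13 rose, against 76.7%. At 10 to 100 FPKM, 9, 6 and 5 of 17 members rose in the knockdown, with V560F and with V465F, against 37.7%, 45.9% and 33.4% of genes. Under 10 FPKM the direction was the other way, with 4, 6 and 4 of 13 members lower against 21.7%, 30.7% and 24.4% of genes. The medians of the abundant chaperones were thus near those of all transcripts of their level, and whether any of the rise is particular to chaperones was not tested.

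**Figure D2:**
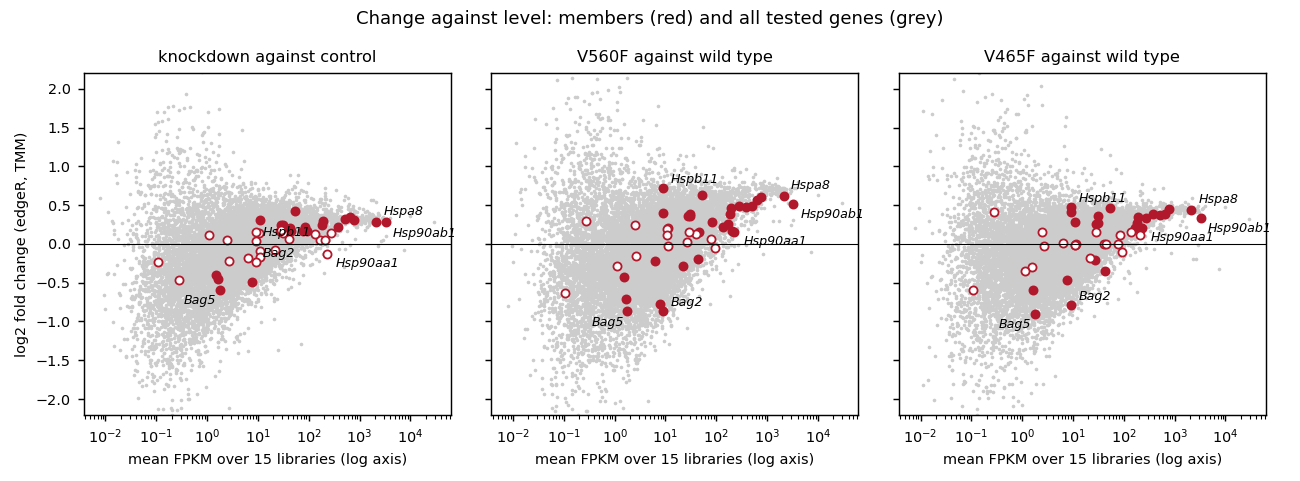
Log2 fold change (edgeR, TMM) against mean FPKM over 15 libraries (log axis) in 3 comparisons, for all 13074 tested genes (grey) and the 43 tested members (red, filled where called). Members lie within the cloud of genes of their level, which bends upward with level; 84 grey points lie beyond the plotted range of 2.2 and no member does.

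The chaperonin subunits rose to different degrees. All 8 somatic subunits rose with V560F (median log2 fold change 0.48, range 0.21 to 0.60), 7 with V465F (median 0.37) and 5 in the knockdown (median 0.26), and none fell. All 8 are at 100 FPKM or more, where 90.4%, 83.7% and 76.7% of all tested genes rose in the same comparisons, with medians of 0.51, 0.35 and 0.29, so their counts and medians were near those of genes of their level. With library totals, Cct3 and Cct6a were at -0.05 and -0.01 for V560F and the other 6 subunits kept their call. Their summed level was 5114 ± 166 CPM in control, 6123 ± 124 in knockdown, 6245 ± 463 with wild type, 8859 ± 767 with V560F and 8091 ± 99.8 with V465F (n = 3).

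Cct2, the beta subunit, was the most abundant of the ring. It was at 1225, 1181 and 1261 CPM in control, 1474, 1488 and 1559.8 in knockdown and 1547, 1414 and 1696 with wild type. With V560F it was at 2231, 2565 and 2271 CPM and with V465F at 2099, 2079 and 2166. Both mutant groups lay above all 9 other libraries, and knockdown above control, while knockdown and wild type overlapped. The log2 fold change was 0.30 ± 0.0707 in the knockdown, 0.60 ± 0.0709 with V560F and 0.45 ± 0.0707 with V465F (edgeR adjusted p = 0.00247, 1.1e-06 and 6.47e-05), and 0.23, 0.45 and 0.35 when corrected.

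Cct4, the delta subunit, was at 913, 851 and 930.5 CPM in control and 1110.3, 1132 and 1176 in knockdown. With plasmids for OPA1 it was at 1147, 1057 and 1257 CPM (wild type), 1606, 1896 and 1616 (V560F) and 1476, 1491 and 1539 (V465F). The order of the groups was that of Cct2, with the same separations. Its log2 fold changes were 0.34 ± 0.0733, 0.56 ± 0.0734 and 0.38 ± 0.0733 (edgeR adjusted p = 0.00122, 2.94e-06 and 0.0004).

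Cct5, the epsilon subunit, was at 808, 763 and 798 CPM in control, 974, 972 and 1014 in knockdown and 995, 953 and 1084 with wild type, then 1327, 1572 and 1338 with V560F and 1324, 1299 and 1320.5 with V465F. Cct7, the eta subunit, was at 742, 679 and 720.4, 834, 817 and 831 and 866, 794 and 908 CPM in those first 3 groups, then 1152, 1318 and 1102 and 1132, 1095 and 1130.4. Both mutant groups lay above the 3 other groups for each gene, and V560F was spread more widely than V465F, with replicate 2 highest. With V560F, the log2 level of Cct5 rose by 0.48 ± 0.0689 and that of Cct7 by 0.48 ± 0.0693 (edgeR adjusted p = 7.53e-06 and 9.41e-06). With V465F the changes were 0.38 ± 0.0688 and 0.39 ± 0.0693 (edgeR adjusted p = 0.000238 and 0.000214). In the knockdown they were 0.32 ± 0.0688 and 0.21 ± 0.0693 (edgeR adjusted p = 0.00125 and 0.0205), and the second was not called with library totals (0.07) or in 3 of the fits that left out 1 library (control replicate 2, knockdown replicate 1 or 3; 0.18 to 0.21, highest edgeR adjusted p = 0.101).

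Tcp1, the alpha subunit that gave the complex its name, was at 569.9, 541 and 560.01 CPM in control, 608, 607 and 634 in knockdown and 625, 589 and 670.5 with wild type, then 841, 965 and 830.2 with V560F and 784, 787 and 803 with V465F. Cct8, the theta subunit, was at 353, 328 and 345, 421, 413 and 428 and 438, 396 and 462 CPM, then 581, 647 and 560.06 and 556, 549 and 551. Again the mutant groups stood above the rest, with every V560F library above the V465F ones. Tcp1 changed by 0.48 ± 0.066 and 0.33 ± 0.0659 with V560F and V465F, and Cct8 by 0.46 ± 0.0661 and 0.35 ± 0.0661 (edgeR adjusted p = 4.69e-06, 0.000517, 7.45e-06 and 0.000308). In the knockdown Cct8 rose by 0.30 ± 0.0661 (edgeR adjusted p = 0.00157), while Tcp1, at 0.15 ± 0.0659, did not pass (edgeR adjusted p = 0.0866). Tcp1, Cct6a, Cct7 and Cct8 each overlap an exon of a gene on the opposite strand, and the strand setting of the counting is not given in the sources used here.

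Cct3 and Cct6a, the gamma and zeta subunits, were the least abundant after length and moved least. Cct3 was at 243, 220.2 and 217 CPM in control, 244, 252 and 249.6 in knockdown and 255, 252 and 275 with wild type, then 292, 326 and 289 with V560F and 300.4, 288 and 284 with V465F. Cct6a was at 377, 361 and 355, 384, 371 and 374 and 359, 332 and 362 CPM, then 418, 456 and 379.8 and 419.7, 403 and 396. For Cct6a the steps were small, and V560F reached down to the level of the knockdown libraries. With V560F the changes were 0.21 ± 0.0638 and 0.25 ± 0.0653 (edgeR adjusted p = 0.00853 and 0.00296), and 0.01 and 0.11 when corrected, where neither was called. The V465F rise of Cct6a, 0.21 ± 0.0653 (edgeR adjusted p = 0.0141), was not called with library totals (0.04) or in 2 of the fits that left out 1 library (0.17 and 0.19).

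Shares within a library do not depend on the scaling between libraries, and they shifted among the subunits. Cct6a made up 6.93, 7.06 and 6.57% of the 8 subunits' summed FPKM in control, 6.10, 5.88 and 5.72% in knockdown and 5.53, 5.51 and 5.17% with wild type. With V560F its share was 4.75, 4.48 and 4.34% and with V465F 4.98, 4.84 and 4.64%. Each group lay below the one before it in the order control, knockdown, wild type, V465F and V560F, without overlap up to V465F, and the mutant groups overlapped. Cct3 went from 5.01 ± 0.268% in control to 3.85 ± 0.0740% with V560F, and Cct2 from 23.9 ± 0.451% to 26.5 ± 0.403% (mean ± SD, n = 3). The exact two-sided permutation test of the Cct6a share gave p = 0.1 for knockdown against control and for each mutant against wild type, the smallest that 3 against 3 allows. The length trend of each library acts on these shares as well, and its part was not tested.

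Hspa8, the constitutive HSP70 (HSC70), rose in the same steps. It was at 3159, 3092 and 3373 CPM in control and 3702, 3902 and 4059 in knockdown. With plasmids for OPA1 it was at 3854, 3909 and 4401 CPM (wild type), 5764, 6796 and 6050.0 (V560F) and 5208, 5366 and 5833 (V465F). The 6 mutant libraries were highest and the 3 control libraries lowest, and knockdown and wild type overlapped. Its log2 level rose by 0.28 ± 0.0753 in the knockdown, 0.61 ± 0.0755 with V560F and 0.43 ± 0.0754 with V465F (edgeR adjusted p = 0.007, 1.7e-06 and 0.000167). Corrected values were 0.19, 0.43 and 0.31, values with library totals 0.13, 0.35 and 0.26, and all remained called. Its processed pseudogenes and the small nucleolar RNAs within its transcript could take or lend reads.

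Hsp90ab1, the constitutive HSP90 beta and the most abundant member, was at 6116, 5881 and 6359 CPM in control and 7278, 7336 and 7634 in knockdown. With wild type it was at 7563, 7115 and 8274 CPM, with V560F at 10185, 12049.5 and 10669 and with V465F at 9331, 9565 and 10106. Its groups lay in the order of those of Hspa8, with log2 fold changes of 0.28 ± 0.0738, 0.52 ± 0.0739 and 0.34 ± 0.0738 (edgeR adjusted p = 0.0061, 7.36e-06 and 0.00117). Hsp90aa1, the heat-inducible HSP90 alpha, was at 682, 659 and 644 CPM in control and 609.9, 595 and 610.2 in knockdown, then 609, 588 and 591 with wild type, 669, 664 and 651 with V560F and 691, 660.5 and 708 with V465F. It stayed in a narrow range, with the knockdown and wild-type libraries lowest. In the knockdown its change was -0.13 ± 0.0554 (edgeR adjusted p = 0.0723), and it fell when corrected (-0.19) or with library totals (-0.28). It rose by 0.15 ± 0.0555 with V560F and 0.20 ± 0.0555 with V465F (edgeR adjusted p = 0.0285 and 0.00592), but with library totals the values were -0.11 and 0.04 and neither was called. The V560F rise was also not called when corrected (0.05), nor without wild-type replicate 2 or 3 or V560F replicate 1 (0.14 to 0.15, highest edgeR adjusted p = 0.0751).

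The ratio of the 2 HSP90 genes is free of scaling between libraries, though not of their length and GC trends, whose part was not tested. In FPKM, Hsp90ab1 exceeded Hsp90aa1 by 10.2, 10.1 and 11.2 times in the control libraries and by 13.6, 14.0 and 14.2 times in the knockdown libraries. With wild type the ratio was 14.1, 13.8 and 15.9, with V560F 17.3, 20.6 and 18.6 and with V465F 15.3, 16.5 and 16.2. Control was lowest and V560F highest, each without overlap with any other group, whereas V465F overlapped wild type. Group means differed by 3.42 for knockdown against control and by 4.25 for V560F against wild type (exact two-sided permutation p = 0.1 for both, the smallest possible), and by 1.41 for V465F against wild type (exact permutation p = 0.2). In all, 11 ratios and shares were computed, and an exact p of 0.1 cannot pass an adjustment over them.

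**Figure D3:**
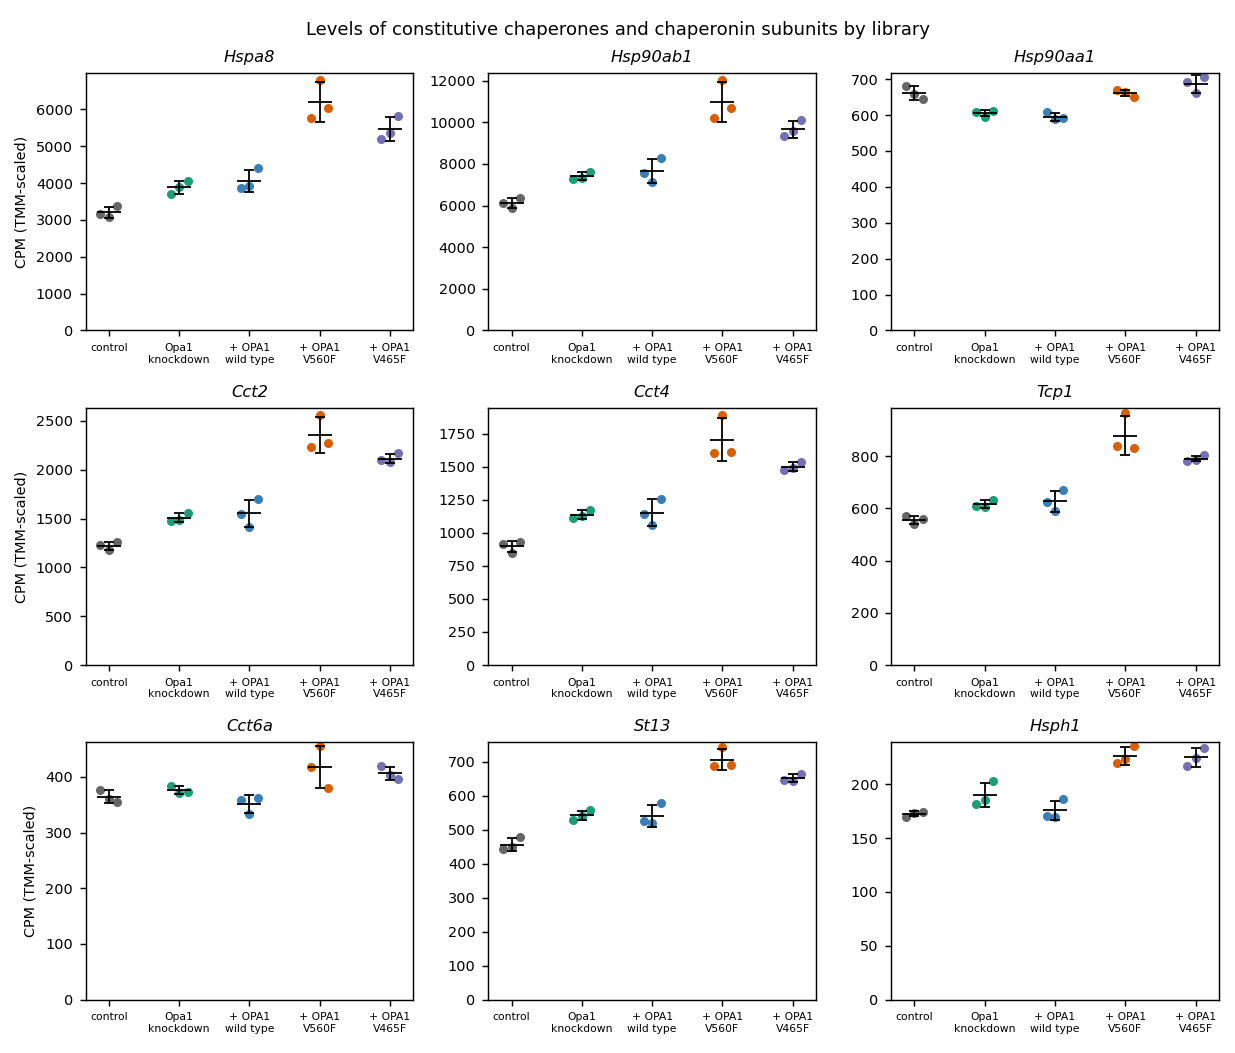
TMM-scaled CPM (vertical axes from 0) of 9 members in the 15 libraries by group (horizontal axes), with the mean and SD of each group (n = 3) as bars. Hspa8, Hsp90ab1, Cct2, Cct4, Tcp1 and St13 are highest in the 2 mutant groups, with V560F replicate 2 the highest library for each, while Hsp90aa1 and Cct6a stay within narrow ranges.

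St13 and Stip1 bind HSP70 directly. St13 (HIP), which stabilizes HSP70 in its client-bound state, was at 442, 448 and 479 CPM in control, 529.7, 539.6 and 557 in knockdown and 526, 519 and 578 with wild type, then 687, 742 and 691 with V560F and 647, 644 and 665 with V465F. Both mutant groups lay above the others. Its changes were 0.25 ± 0.0613, 0.38 ± 0.0613 and 0.27 ± 0.0613 (edgeR adjusted p = 0.00359, 2.51e-05 and 0.00169), of which the V560F rise alone was also called with library totals. Stip1 (HOP), which bridges HSP70 and HSP90, was at 437, 406 and 429 CPM, 440.1, 426 and 452 and 448, 411 and 447 in control, knockdown and wild type, then 471, 519.9 and 474 with V560F and 484, 463 and 465.1 with V465F. Its rise with V560F, 0.17 ± 0.0613 (edgeR adjusted p = 0.0292), was 0.03 when corrected and -0.10 with library totals, and it was 0.12 and not called without V560F replicate 2 or without wild-type replicate 2.

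Hsph1 and Hspa4 encode HSP110 proteins, which exchange the nucleotide of HSP70. Hsph1, a heat-inducible member, was at 169.7, 173 and 174 CPM in control, 182, 186 and 203 in knockdown and 171, 169.8 and 186 with wild type, then 219, 223 and 235 with V560F and 217, 224 and 234 with V465F. All 6 mutant libraries were above the 9 others. It rose by 0.36 ± 0.0616 with V560F and 0.36 ± 0.0615 with V465F (edgeR adjusted p = 4.71e-05 and 0.000148), and by 0.55 and 0.47 when corrected. With library totals the V560F rise was 0.11 and not called. Hspa4 was at 314, 319 and 339.9 CPM in control and 359, 358 and 375 in knockdown, then 369, 352 and 393 with wild type, 369.5, 413 and 377 with V560F and 376, 376 and 365 with V465F. Knockdown lay above control, with a rise of 0.17 ± 0.0618 (edgeR adjusted p = 0.0391), and the mutants overlapped wild type. That rise was 0.02 and not called with library totals, and leaving out any of control replicates 1 and 2 and the 3 knockdown libraries ended the call (0.15 to 0.18, highest edgeR adjusted p = 0.137). Against wild type the values were 0.06 ± 0.0618 and 0.00 ± 0.0618 (edgeR adjusted p = 0.46 and 0.971). With library totals both mutant values were called lower (-0.20 and -0.16), and when corrected the V560F value was called higher (0.18). Hspa4l, the third of this family, was at -0.28 ± 0.0755 with V560F (edgeR adjusted p = 0.00388) and -0.12 when corrected, where it was not called.

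The heat shock element, the site that trimeric heat shock factor binds, was searched for in promoters because the inducible members are known targets of that factor.
The motif was GAA, TTC and GAA in a row with any 2 bases (NN) between them, or TTC, GAA and TTC spaced in the same way, on either strand, in windows of 250 bases before to 50 after a start site (RefSeq, GRCm38.p6).
It was found in 2 of the 45 members with a promoter entry (4.44%), Hsph1 and Dnajb6, and in 179 of 27025 genes with one (0.662%).
Bag4, Cct4, Hsp90aa1, Hsp90ab1, Hspa13, Hspa8, Hspb2 and St13 had no entry. The inducible genes Hspa1a, Hspa1b, Hspb1, Dnajb1 and Bag3 had entries without a match. The motif allows no mismatch, so imperfect elements are missed, and the shares rest on 2 genes.
Both promoters are shown because no other member's window held the motif and both genes rose with the mutants, and Dnajb6 was added after its match was seen.
Capitals mark the motif, which starts 36 bases after the start site in Hsph1 (chr5:149636287-149636586, minus strand) and 46 bases before it in Dnajb6 (chr5:29735648-29735947, plus strand).
Each gene has a second start site in the table whose window holds the same match, 15 bases after the start in Hsph1 and 127 bases before it in Dnajb6.

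Hsph1: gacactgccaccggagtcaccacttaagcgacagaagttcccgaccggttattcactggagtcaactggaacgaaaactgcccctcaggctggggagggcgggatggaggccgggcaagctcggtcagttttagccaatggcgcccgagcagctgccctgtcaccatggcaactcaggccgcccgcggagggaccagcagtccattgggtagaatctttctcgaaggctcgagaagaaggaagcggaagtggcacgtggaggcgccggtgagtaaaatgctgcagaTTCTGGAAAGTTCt
Dnajb6: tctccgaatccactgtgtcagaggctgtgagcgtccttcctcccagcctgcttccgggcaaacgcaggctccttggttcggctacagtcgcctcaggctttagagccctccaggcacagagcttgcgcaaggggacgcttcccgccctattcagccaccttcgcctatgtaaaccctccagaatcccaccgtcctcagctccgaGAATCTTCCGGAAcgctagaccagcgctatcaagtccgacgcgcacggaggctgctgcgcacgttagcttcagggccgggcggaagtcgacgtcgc
The match is a description of these letters and says nothing of binding in these cells.

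HSP40 proteins hand clients to HSP70 and start its ATPase. Of 11 tested HSP40 genes, 3 rose and 2 fell in the knockdown, 3 rose and 2 fell with V560F, and 3 rose and 1 fell with V465F. The share that rose, 27.3% in each, compares with 19.9%, 24.5% and 18.1% of all tested genes. The shares that fell, 18.2%, 18.2% and 9.09%, compare with 16.0%, 24.9% and 20.0%. Dnajb6, which holds back aggregation of polyglutamine proteins, was at 105, 101 and 104 CPM in control, 121, 125 and 122 in knockdown and 117, 122 and 131 with wild type, then 146, 177 and 159 with V560F and 149.6, 143 and 152 with V465F. Its mutant libraries all stood above the wild-type ones. It rose by 0.25 ± 0.0671, 0.38 ± 0.067 and 0.26 ± 0.067 (edgeR adjusted p = 0.00699, 7.08e-05 and 0.00363), or 0.29, 0.50 and 0.34 when corrected, and none of these was called with library totals. Dnajb1 (HSP40 proper), a heat-inducible partner of HSP70, was at 72.8, 75.9 and 77.2 CPM in control and 83.9, 91.9 and 92.8 in knockdown, then 77.9, 84.2 and 92.2 with wild type, 101, 119 and 107 with V560F and 90.3, 92.1 and 101 with V465F. V560F was above wild type without overlap and V465F overlapped it. It rose by 0.25 ± 0.074 in the knockdown and 0.36 ± 0.0741 with V560F (edgeR adjusted p = 0.012 and 0.000335), and neither call held with library totals (0.10 and 0.10), nor the first without knockdown replicate 3 (0.23, edgeR adjusted p = 0.0564). Dnaja2, a constitutive partner of HSP70, rose by 0.22 ± 0.0611 and 0.28 ± 0.0611 in the same comparisons (edgeR adjusted p = 0.0087 and 0.000727), while Dnajb2 and the endoplasmic reticulum protein gene Dnajb11 rose with V465F by 0.28 ± 0.0929 and 0.26 ± 0.0714 (edgeR adjusted p = 0.02 and 0.00719). With library totals none of these 4 rises was called, at 0.07 and 0.01 for Dnaja2, 0.11 for Dnajb2 and 0.09 for Dnajb11. The Dnajb2 call also ended without wild-type replicate 1 or V465F replicate 3 (0.22 in both), and that of Dnajb11 without wild-type replicate 2 (0.21).

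Dnajb5 and Dnajb14 fell, and both were under 10 FPKM. Dnajb5, a cytosolic HSP40 close to Dnajb1, was at 10.3, 7.72 and 9.41 CPM in control, 7.53, 6.76 and 5.65 in knockdown and 7.58, 6.83 and 7.34 with wild type, then 4.29, 4.68 and 4.31 with V560F and 4.85, 5.26 and 4.27 with V465F. The mutant libraries were below all others, and knockdown below control. The changes were -0.45 ± 0.14, -0.71 ± 0.154 and -0.60 ± 0.151 (edgeR adjusted p = 0.0153, 0.000612 and 0.0036), with corrected values of -0.39, -0.58 and -0.51. The knockdown fall was not called without control replicate 1 or knockdown replicate 3 (-0.36 and -0.35). Dnajb14, a membrane HSP40 of the endoplasmic reticulum with a long transcript, was at 13.8, 16.3 and 13.8 CPM in control, 10.6, 12.3 and 10.4 in knockdown and 11.1, 12.8 and 11.6 with wild type, then 9.79, 6.71 and 10.0 with V560F and 10.6, 8.75 and 9.49 with V465F. All mutant libraries lay below the wild-type ones, and knockdown below control. It fell by 0.41 ± 0.13 in the knockdown (edgeR adjusted p = 0.0184) and by 0.42 ± 0.138 with V560F (edgeR adjusted p = 0.015). The first was not called without control replicate 2 or without knockdown replicate 1 or 3 (-0.37 to -0.32, highest edgeR adjusted p = 0.108), and the second when corrected (-0.28) or without V560F replicate 2 (-0.26) or wild-type replicate 2 (-0.36).

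The BAG genes, whose products release nucleotide from HSP70 and steer its clients, moved in opposite directions. Bag1, which couples HSP70 to the proteasome, rose; it was at 47.5, 43.3 and 49.0 CPM in control, 65.0, 61.8 and 60.4 in knockdown and 63.2, 59.8 and 74.4 with wild type, then 92.6, 119 and 95.0 with V560F and 89.9, 85.7 and 96.1 with V465F. Its values were lowest in control and highest in the mutant libraries, with no overlap between these and wild type. The log2 fold changes were 0.42 ± 0.0915, 0.64 ± 0.0903 and 0.46 ± 0.0903 (edgeR adjusted p = 0.0014, 7.27e-06 and 0.000478), or 0.33, 0.35 and 0.27 when corrected. Bag3, which couples HSP70 to autophagy and is a known target of heat shock factor, was at 106, 102 and 107 CPM in control, 122, 121 and 121 in knockdown and 121, 125 and 124 with wild type, then 107, 109 and 108 with V560F and 101, 99.9 and 91.1 with V465F. It was highest in the knockdown and wild-type libraries and lower, without overlap, in both mutant groups. It rose by 0.21 ± 0.0564 in the knockdown (edgeR adjusted p = 0.00646; 0.06 and not called with library totals) and changed by -0.19 ± 0.0568 with V560F and -0.35 ± 0.0569 with V465F (edgeR adjusted p = 0.00835 and 9.64e-05).

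Within a library, the ratio of Bag1 to Bag3 in FPKM was 0.864, 0.816 and 0.879 in control, 1.02, 0.981 and 0.959 in knockdown and 1.01, 0.920 and 1.15 with wild type. It was 1.66, 2.09 and 1.69 with V560F and 1.72, 1.65 and 2.03 with V465F. All 6 mutant libraries lay above the 9 others, by a difference of means of 0.789 and 0.773 against wild type (exact two-sided permutation p = 0.1 for both, the smallest possible). The pair was chosen after its values were seen. Bag1 is 1349 and Bag3 2595 bases long, so the length trend of each library acts on this ratio, and its part was not tested.

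Bag2 and Bag5 had the largest falls among called members with both mutants. Bag2, an inhibitor of the ubiquitin ligase CHIP, was at 23.7, 22.0 and 21.7 CPM in control, 20.3, 18.8 and 17.96 in knockdown and 15.9, 20.2 and 17.8 with wild type, then 11.3, 9.13 and 9.07 with V560F and 11.7, 8.81 and 10.7 with V465F. The mutant libraries were below all others without overlap. It fell by 0.87 ± 0.121 on the log2 scale with V560F and by 0.79 ± 0.119 with V465F (edgeR adjusted p = 5.65e-06 and 3.87e-05), and the corrected values were -1.07 and -0.93. Bag5, which has several BAG domains, was at 9.52, 6.57 and 6.50 CPM in control, 4.80, 5.25 and 4.87 in knockdown and 4.14, 5.15 and 5.33 with wild type, then 3.08, 2.70 and 2.21 with V560F and 2.93, 2.90 and 2.04 with V465F. Knockdown lay below control and the mutants below wild type, at -0.59 ± 0.176, -0.87 ± 0.203 and -0.90 ± 0.201 (edgeR adjusted p = 0.012, 0.00115 and 0.0014). Control replicate 1 was the highest library, and without it the knockdown value was -0.39 and not called (edgeR adjusted p = 0.112). Its level of 1.79 FPKM is low, and 30.7% of genes under 10 FPKM also fell with V560F. Bag6, which guards tail-anchored membrane proteins, rose by 0.17 ± 0.0556 in the knockdown and 0.15 ± 0.0556 with V560F (edgeR adjusted p = 0.0217 and 0.0294), and Bag4 by 0.30 ± 0.0715 in the knockdown (edgeR adjusted p = 0.00269); none of the 3 held with library totals, and those of Bag6 also ended in 3 and 4 of the fits that left out 1 of the 6 libraries compared (highest edgeR adjusted p = 0.0716 and 0.105).

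**Figure D4:**
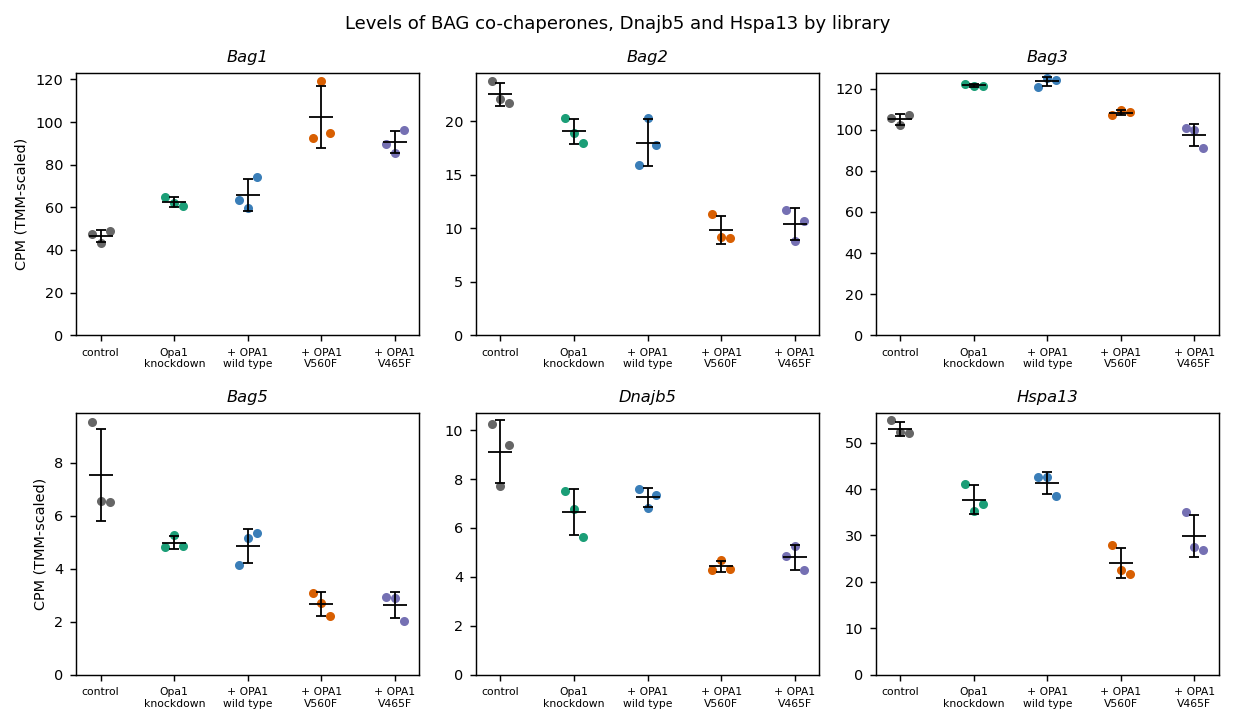
TMM-scaled CPM (vertical axes from 0) of 4 BAG genes, Dnajb5 and Hspa13 in the 15 libraries by group (horizontal axes), with the mean and SD of each group (n = 3). Bag1 is highest in the 2 mutant groups, Bag2, Bag5, Dnajb5 and Hspa13 are lowest there, and Bag3 is highest with knockdown and with wild type.

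**Figure D5:**
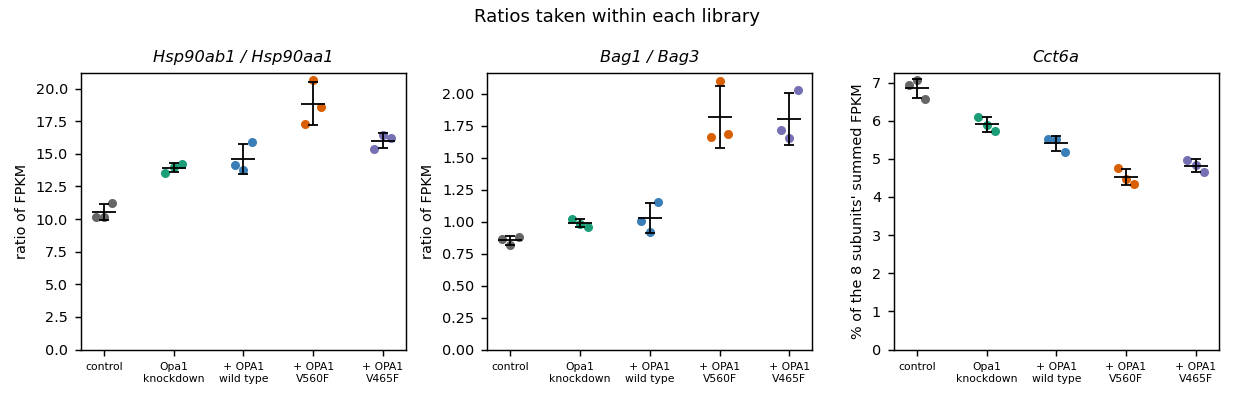
Ratios and a share taken within each library (vertical axes from 0) by group (horizontal axes): Hsp90ab1 over Hsp90aa1 and Bag1 over Bag3 in FPKM, and Cct6a as a percentage of the summed FPKM of 8 chaperonin subunits, with mean and SD (n = 3). The HSP90 ratio rises from 10.5 ± 0.608 in control to 18.9 ± 1.68 with V560F, and the Cct6a share falls from 6.85 ± 0.251% to 4.52 ± 0.206%.

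Among the members that are not cytosolic chaperones, Hspa13 fell and Hspb11 rose. Hspa13, an HSP70-like protein of microsomes, was at 54.8, 52.2 and 52.1 CPM in control, 41.2, 35.2 and 36.8 in knockdown and 42.7, 42.7 and 38.5 with wild type, then 27.9, 22.6 and 21.7 with V560F and 35.0, 27.5 and 26.9 with V465F. Control was highest and the mutant libraries lowest, without overlap with wild type. It changed by -0.49 ± 0.0962, -0.78 ± 0.102 and -0.47 ± 0.0997 (edgeR adjusted p = 0.000596, 3.21e-06 and 0.000943). Hspb11 was at 16.2, 16.5 and 16.6 CPM in control, 15.9, 17.1 and 17.6 in knockdown and 15.1, 14.7 and 17.1 with wild type, then 23.6, 29.2 and 24.0 with V560F and 19.5, 24.4 and 21.2 with V465F. It was flat over the first 3 groups and higher in both mutant groups, by 0.71 ± 0.102 and 0.48 ± 0.103 (edgeR adjusted p = 7.99e-06 and 0.00107; corrected 0.51 and 0.35), the largest rises of any called member in these comparisons.

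The inducible members went in different directions. Hspb8, the small heat shock protein that works with Bag3, was at 160.0, 151 and 160.5 CPM in control, 178, 174 and 175 in knockdown and 173, 175 and 184 with wild type, then 161, 181 and 172 with V560F and 169, 169 and 157 with V465F. It rose by 0.16 ± 0.0597 in the knockdown (edgeR adjusted p = 0.0399), not when corrected (0.10), with library totals (0.02) or without any 1 of the 6 libraries compared (highest edgeR adjusted p = 0.161), and was at -0.05 ± 0.0599 and -0.11 ± 0.0599 with the mutants (edgeR adjusted p = 0.475 and 0.16). Of the 8 inducible genes listed, 5 were tested. In the knockdown 3 of them rose (Dnajb1, Bag3 and Hspb8) and 0 fell (60.0% higher, against 19.9% of all tested genes). These 3 are at 10 to 100 FPKM, where 37.7% of tested genes rose, and none of their rises was called with library totals. With V560F 3 rose (Hsph1, Dnajb1 and Hsp90aa1), 1 fell (Bag3) and Hspb8 was not called. These were 60.0% and 20.0%, against 24.5% and 24.9% of all tested genes, and with library totals none of the V560F rises was called. With V465F 2 rose and 1 fell (40.0% and 20.0%, against 18.1% and 20.0%). The V465F rise of Hsph1 was called in all 10 alternatives and in all 15 fits that left out 1 library. The summed level of the 8 inducible genes was 1172 ± 16.4 CPM in control, 1182 ± 17.8 in knockdown, 1157 ± 18.6 with wild type, 1276 ± 19.5 with V560F and 1268 ± 22.3 with V465F (n = 3). The constitutive members Hspa8, Hsp90ab1, Hspa4, Stip1 and St13 summed to 10532 ± 420, 12650 ± 392, 13053 ± 929, 18753 ± 1581 and 16631 ± 718 CPM in the same groups (n = 3). Of the control sums, Hsp90aa1 alone made up 662 CPM of the inducible one, and Hsp90ab1 and Hspa8 6119 and 3208 CPM of the constitutive one. As a share of all counts the inducible sum was 0.136%, 0.124%, 0.12%, 0.110% and 0.117% in that order of groups. The constitutive sum was 1.22%, 1.32%, 1.35%, 1.62% and 1.53%. Hspb2, a muscle small heat shock protein whose exons overlap Cryab on the opposite strand, rose by 0.39 ± 0.144 and 0.40 ± 0.143 with the mutants (edgeR adjusted p = 0.0272 and 0.0295), and was at -0.02 and 0.14 when corrected, where it was not called. Neither was it called with library totals (0.13 and 0.24), and without V560F replicate 2 the V560F value was 0.38 and not called (edgeR adjusted p = 0.0607). In all, 3 of the fits that left out 1 library ended the call for each mutant.

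Both mutants are set against the same wild-type libraries, so that their fold changes are not independent of each other. Set against each other, V465F and V560F gave 0 called members by edgeR (0% of tested genes higher and 0.00765% lower) and 0 by DESeq2. At an unadjusted p under 0.05 there were 14 of 43 members (32.6%, against 18.2% of all tested genes), 12 of them lower with V465F. In the edgeR fit with library totals there were 6 (14.0%, against 19.1%), 5 of them higher with V465F, so that this direction depended on the scaling. Hspa8 was at -0.18 ± 0.0752 and Hsp90ab1 at -0.18 ± 0.0738 (edgeR adjusted p = 0.212 and 0.204), with 95% intervals of -0.34 to -0.03 and -0.33 to -0.03. All 8 chaperonin subunits were below 0 as well with TMM scaling, though Cct3, Cct6a and Cct7 were above 0 with library totals, and none passed the test. All of these genes are at 100 FPKM or more. At that level the median with TMM scaling was -0.17 for the 570 tested genes and -0.11 for the 13 members.

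No member passed the test between wild-type OPA1 and knockdown. Against knockdown it gave 0 called members by edgeR (0% of all tested genes in either direction) and 0 by DESeq2, and 3 of 43 had an unadjusted p under 0.05 (6.98%, against 8.85% of all tested genes). The 95% interval of the log2 fold change was -0.10 to 0.22 for Hspa8, -0.11 to 0.20 for Hsp90ab1 and -0.10 to 0.19 for Cct2, and its median half-width over the members was 0.150. The values nearest to a call were those of Bag4, -0.19 ± 0.0714, and Dnajb4, 0.27 ± 0.105 (edgeR adjusted p = 0.515 and 0.527). Expression of OPA1 from the plasmid was not visible in the Opa1 counts, so this comparison cannot tell a lack of effect from a lack of expression.

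Of 18 HSP90 co-chaperones 9 rose in the knockdown and none fell, 10 rose and 1 fell with V560F, and 8 rose and 2 fell with V465F (median log2 fold change 0.17, 0.26 and 0.17, against 0.01, -0.02 and -0.02 for all tested genes). The shares that rose were 50.0%, 55.6% and 44.4%, against 19.9%, 24.5% and 18.1% of all tested genes, and when corrected 10 rose and 3 fell in the knockdown, 11 and 2 with V560F and 9 and 1 with V465F. Sugt1 rose by 0.47 ± 0.0936 and Ptges3, the p23 co-chaperone, by 0.31 ± 0.071 in the knockdown, and Ppid and the kinase co-chaperone Cdc37 by 0.49 ± 0.0632 and 0.51 ± 0.0772 with V560F (edgeR adjusted p = 0.000737, 0.00209, 2.99e-06 and 1.37e-05). Chordc1 was lower with V560F (-0.19 ± 0.0708) and V465F (-0.20 ± 0.0706), and Unc45a with V465F (-0.30 ± 0.109; edgeR adjusted p = 0.0277, 0.0273 and 0.0358). Of 12 genes of prefoldin, which delivers actin and tubulin to the chaperonin, and of chaperonin cofactors, 4, 8 and 6 rose in the 3 comparisons and 3 fell with V465F, but only 2, 5 and 4 rose when corrected, and 1, 2 and 3 fell. The uncorrected shares that rose were 33.3%, 66.7% and 50.0%, set against the same shares of all tested genes. Among them Vbp1 rose by 0.37 ± 0.0665 in the knockdown and 0.54 ± 0.0664 with V560F (edgeR adjusted p = 0.000294 and 1.79e-06), the latter 0.22 when corrected. Pdcl and Pdcl3 were lower with V465F, at -0.33 ± 0.0694 and -0.35 ± 0.0808 (edgeR adjusted p = 0.000877 and 0.00195). Neither the co-chaperone list nor the prefoldin list was set against genes of its own level. Rises followed level: at 10 to 100 FPKM 37.7%, 45.9% and 33.4% of tested genes rose, and at 100 FPKM or more 76.7%, 90.4% and 83.7%. Whether the shares are particular to these lists was not tested.

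Of 18 tested tubulin, actin and tubulin cofactor genes, the main clients of the chaperonin and their helpers, 10 rose and 2 fell in the knockdown, 15 rose with V560F and 14 with V465F. Actg1 and Tuba1b rose by 0.36 ± 0.0651 and 0.39 ± 0.0814 in the knockdown, and Tubb5 by 0.66 ± 0.0784 with V560F (edgeR adjusted p = 0.000274, 0.00109 and 1.26e-06). The 2 that fell in the knockdown were Tbcc (-1.38 ± 0.305) and Tbcd (-0.19 ± 0.0759; edgeR adjusted p = 0.00156 and 0.0499). The shares that rose were 55.6%, 83.3% and 77.8%, above those of all tested genes, though at 100 FPKM or more, where the most abundant of them lie, 76.7%, 90.4% and 83.7% of genes rose. When corrected, 10, 11 and 10 rose. Of 18 DNAJC genes 6 rose and 3 fell in the knockdown, 6 and 4 with V560F and 5 and 3 with V465F, or 33.3%, 33.3% and 27.8% higher and 16.7%, 22.2% and 16.7% lower, against 19.9%, 24.5% and 18.1% higher and 16.0%, 24.9% and 20.0% lower of all tested genes. Of the heat shock factor genes, Hsf1 fell by 0.40 ± 0.0811 and Hsf2 rose by 0.22 ± 0.0607 in the knockdown (edgeR adjusted p = 0.000734 and 0.00694). Hsf4 was lower there as well (-0.74 ± 0.283, edgeR adjusted p = 0.045). The Hsf2 rise was 0.08 and not called with library totals. Against wild type Hsf2 rose with V560F by 0.21 ± 0.0608 (-0.05 with library totals), and Hsbp1, whose product binds heat shock factor, rose by 0.62 ± 0.0873 with V560F and 0.39 ± 0.0872 with V465F (edgeR adjusted p = 0.00582, 6.25e-06 and 0.00152), with corrected values of 0.24 and 0.14 for Hsbp1.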

How the data were processed

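Total RNA of 15 N2a libraries, 3 in each of 5 groups taken from the sample labels, was measured by RNA-seq on day 3. The submitters' processing notes name fastp, HISAT2, HTSeq, R 3.2.0 and, for the genome, GRCm39; other tool versions, the annotation, strand setting and any filters are not given in the sources used here. The deposited table holds raw gene counts and FPKM, and the deposited FPKM could be rebuilt from the counts, gene length and each library's table total, with a largest relative gap of 1.2e-06. Totals were 20070123 to 27809960 counts per library, and no pair of libraries was identical (0 pairs).

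Counts were tested with edgeR 4.0.16 in R 4.3.3 (TMM, filterByExpr, quasi-likelihood, 1 mean per group, 10 residual degrees of freedom), and p-values were adjusted by Benjamini-Hochberg over the 13074 tested genes, with calls at an adjusted p under 0.05. The median coefficient of biological variation was 8.22%. The procedure was tested on simulated data. The corrected fit used splines with 5 degrees of freedom on transcript length (from FPKM) and GC content (GENCODE M21, used for no coordinates; 12510 tested genes had a value). Further alternatives were DESeq2 1.42.0, other scalings and filters, limma 3.58.1 on log2 FPKM, a replicate block, the compared libraries alone, and each library left out. Levels are TMM-scaled CPM. The text gives every library's value for the 8 chaperonin subunits, the listed inducible and constitutive members, and in each comparison the 4 called members with the largest rise and the 4 with the largest fall at 1 FPKM or more. From the other lists, it prints some of the 2 called genes of lowest adjusted p in each direction. Dnajb6, the within-library ratios, and other members with printed values were chosen after their values were seen. Of the genes read to check the cell type, 1 is not reported here. The members and lists were chosen with earlier results of these data known.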

Additional observations from a re-analysis of the deposited data

How the results depend on the processing

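The calls of Tcp1, Cct2, Cct4, Cct5, Cct7, Cct8, Hspa8, Hsp90ab1, Bag1, Bag2, Hspa13 and Hspb11 against wild type held for both mutants in all 10 alternatives and in all 15 fits that left out 1 library. The counts of members that rose and fell did not. With library totals they were 7 and 10 in the knockdown, 11 and 15 with V560F, and 11 and 13 with V465F. Over all 13074 tested genes the same fits gave 974 and 3435, 1210 and 5938, and 904 and 4500. With limma on log2(FPKM + 1) they were 6 and 10 in the knockdown, 11 and 15 with V560F, and 14 fell with V465F, and with a pseudocount of 0.1 they were 5 and 10, 11 and 15, and 14. Over all 13074 tested genes the first gave 1038 and 3577, 1254 and 5807, and 4297. The pseudocount of 0.1 gave 1018 and 3182, 1254 and 5948, and 4307. A filter of 5 FPKM left 9 rises in the knockdown, where 1279 of the 7342 genes tested rose. With only the libraries compared, 9 fell in the knockdown and 5 with V560F, beside 2977 of 12809 and 2607 of 12424 tested genes. With no filter 1 member, Hspa13, was higher with V465F than with V560F, and 243 of all 22507 genes were. Leaving out each library in turn gave 12 to 21 rises and 2 to 6 falls in the knockdown, 17 to 23 and 6 to 9 with V560F, 15 to 20 and 5 to 8 with V465F, 0 to 2 higher and 0 to 1 lower for V465F against V560F, 0 for wild type against knockdown, and 33 to 39 over the 5 groups. Over all tested genes these fits gave 1752 to 3130 rises and 1484 to 2468 falls in the knockdown. With V560F there were 2689 to 3231 and 2692 to 3230, and with V465F 1666 to 2757 and 1943 to 2983. The knockdown falls of members numbered 2 without control replicate 1 or without knockdown replicate 3. The calls of members between the mutants (2 higher and 1 lower) came without V560F replicate 1, where 322 of all tested genes were higher and 496 lower.

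Directions are counted as turned where at least 1 of both values was called. For V560F against wild type, library totals turned Bag6 (-0.11), Cct3 (-0.05), Cct6a (-0.01), Dnaja1 (-0.14), Hsf2 (-0.05), Hsp90aa1 (-0.11), Hspa14 (-0.23), Hspa4 (-0.20) and Stip1 (-0.10). On log2(FPKM + 1) the values were -0.11 for Bag6, -0.05 for Cct3, -0.01 for Cct6a, -0.13 for Dnaja1, -0.04 for Hsf2, -0.11 for Hsp90aa1, -0.22 for Hspa14, -0.20 for Hspa4 and -0.10 for Stip1, and with a pseudocount of 0.1 those of library totals. The length and GC correction turned Hspa14 (-0.19) and Hspb2 (-0.02). For V560F the median of all genes moved by -0.260 with library totals, by -0.132 on log2(FPKM + 1) and by -0.236 with the pseudocount of 0.1; otherwise the cause was not tested. Replicate numbers did not pair the libraries (correlations of deviations -0.161 to 0.083). With the replicate block 18 members rose and 4 fell in the knockdown, 21 and 8 with V560F, and 18 and 6 with V465F. Over all 13074 tested genes that fit gave 2576 and 2100, 3184 and 3262, and 2367 and 2628. Hspa1a, Hspa1b and Hspb1 had at most 3 counts in a library, so that a fall or a small change in them was not detectable at this depth. None of them rose above these few counts in any group. For Hspa1a and Hspa1b, reads that fit both copies may have been dropped.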
